A study of Arabidopsis thaliana with 12 samples.

Results

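The PIP genes encode the aquaporins of the plant plasma membrane. They were examined here for chromatin peaks of MAC3A in Arabidopsis thaliana seedlings. The 10 loci were taken by their locus identifiers out of 37899 genes on chromosomes 1 to 5, and for each one every MAC3A summit inside the gene body or within 1 kb of either end was listed. The genes are PIP1A (PIP1;1, AT3G61430), PIP1B (PIP1;2, AT2G45960), PIP1C (PIP1;3, AT1G01620), PIP1E (PIP1;4, AT4G00430) and PIP1D (PIP1;5, AT4G23400) of the PIP1 group. The PIP2 group is represented by PIP2A (PIP2;1, AT3G53420), PIP2B (PIP2;2, AT2G37170), PIP2C (PIP2;3 or RD28, AT2G37180), PIP2D (PIP2;5, AT3G54820) and PIP3A (PIP2;7, AT4G35100). Letter names are used from here on, and all of them are synonyms in the RefSeq gene table. The set was chosen by family with the MAC3A peak lists known, and in part on the summits found at these genes, so which of them have a summit, in which libraries and with what fold is given as a description without a test.

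Aquaporins are tetrameric membrane channels in which each subunit forms its own pore for water. PIP2 proteins carry most of the water flow when expressed alone, and PIP1 proteins generally reach the plasma membrane when they assemble with PIP2 partners. In seedlings, PIP genes are among the abundantly expressed membrane protein genes, and their products set the water permeability of expanding and transpiring cells. MAC3A is a plant Prp19, a U-box ubiquitin ligase that works in the MOS4-associated complex on pre-mRNA splicing. The series title sets it beside the cryptochromes, which are blue-light receptors, and the transcription factor HY5.

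The 12 samples were 3 MAC3A libraries from blue light, 3 MAC3A libraries from the dark, and 3 control libraries for each condition. All came from seedlings of 6 days whose genotype is given as Columbia-4. The growth notes describe lines expressing MAC3A-GFP and a line with GFP alone as control, but the antibody entry is anti-FLAG M2 and the controls are titled input. The sources used here do not name the promoter of the transgene or the number of lines. As these notes give growth under blue light for every sample, blue and dark rest on the titles alone, and nothing in them says whether the replicates were separate cultures. Only the 6 MAC3A libraries had peak lists.

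The blue lists held 1505, 1820 and 1578 peaks and the dark lists 1285, 1225 and 1169. The peak caller's formulas tie each fold and p value to the number of ChIP fragments over it and the number expected there from the control given to the caller. Which control libraries stand behind each list is not stated, so these expectations are inferred from the lists and not read from control data. The genome-wide background so obtained was 21.1 ± 1.39 fragments per position in blue light and 10.6 ± 0.606 in the dark (SD, n = 3 each), so the blue lists were called at 1.99 times the background coverage of the dark lists. At that background the lowest fold that could enter a list was 2.36 to 2.38 in blue light and 2.69 to 2.76 in the dark. Folds are the authors' own values per peak and are compared within a list. Where blue and dark folds stand side by side below, they carry this difference in depth.

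MAC3A summits were found at 7 of the 10 PIP genes, and at 13.7% of protein-coding genes. In blue light 6 genes had a summit in at least 2 of 3 libraries, namely PIP1A, PIP1B, PIP1C, PIP1E, PIP2A and PIP3A, and the same rule held for 7.37% of 27444 protein-coding genes. In the dark 3 genes met it, namely PIP1E, PIP2A and PIP2B, against 5.62% of protein-coding genes. PIP1E and PIP2A met it in both conditions, as did 4.16% of protein-coding genes. Summits in at least 2 blue and no dark libraries were seen at PIP1A, PIP1B, PIP1C and PIP3A, a pattern of 2.28% of protein-coding genes. The opposite pattern, at least 2 dark and no blue libraries, was seen at 0 PIP genes and at 0.969% of protein-coding genes. PIP1E was the 1 member with a summit in all 6 libraries, which 2.7% of protein-coding genes had. PIP1D, PIP2C and PIP2D had none in any library, like 86.3% of protein-coding genes. These shares describe the genome only, since the members were picked with the lists in view.

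**Figure D1:**
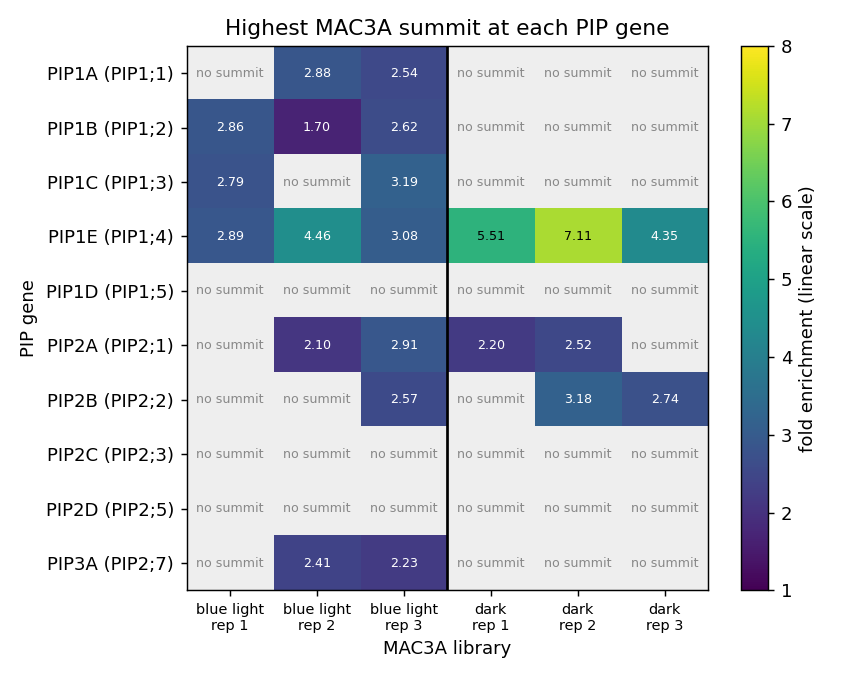
Fold enrichment of the highest MAC3A summit in the body or within 1 kb of each PIP gene (rows), in the 3 blue-light and 3 dark libraries (columns); grey cells have no summit. PIP1E has values in all 6 libraries, from 2.89 to 4.46 in blue light and from 4.35 to 7.11 in the dark, and the values of the other genes lie between 1.70 and 3.19.

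Per library, 3, 5 and 7 of the 10 genes had a summit in blue replicates 1, 2 and 3, and 2, 3 and 2 in dark replicates 1, 2 and 3. The lowest blue library equalled the highest dark one. The means were 5.00 ± 2.00 genes in blue light and 2.33 ± 0.577 in the dark (SD, n = 3 each), while 7.88 ± 0.731% and 6.01 ± 0.267% of protein-coding genes had a summit in the same libraries. The spread among the blue libraries was therefore wide for these genes. Blue replicate 3 had summits at every PIP gene that had one anywhere, and without it the number of genes with summits in the remaining 2 blue libraries was 2, PIP1B and PIP1E. Without blue replicate 2 it was 3. Without dark replicate 2 the dark number was 1, PIP1E.

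The strongest PIP peak was that of PIP1E (PIP1;4), a PIP1 aquaporin for which transport of hydrogen peroxide as well as water has been reported. The peaks of the 6 libraries merged into a region of 1027 bp on chromosome 4 from 186591 to 187617 (TAIR10, counted from 1), and all 7 summits lay inside the gene body. In blue light the highest summits had folds of 2.89, 4.46 and 3.08 in replicates 1, 2 and 3, at −log10 q values of 7.59, 16.9 and 9.06. In the dark the folds were 5.51, 7.11 and 4.35, at −log10 q values of 18.6, 31.3 and 16.2. A −log10 q near 2 is the lowest in every list, so all of these summits were far from the limit. The lowest dark fold was just under the highest blue fold, so the conditions overlapped in 1 library each.

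The fragment numbers behind PIP1E separate the ChIP signal from its local expectation. Blue libraries had 122, 114 and 119 fragments over the highest summit, against 40.5, 24.03 and 37.1 expected. Dark libraries had 79, 119 and 103 fragments, against 13.0, 15.1 and 22.3 expected. The ranges of the ChIP fragments overlapped, and each expected number in the dark was below each one in blue light. Neither number is scaled for depth. The genome-wide background was 22.3, 19.6 and 21.4 fragments in the blue libraries and 9.96, 10.7 and 11.2 in the dark libraries. Relative to that background the expectation was 1.81, 1.23 and 1.74 in blue light and 1.31, 1.41 and 2.00 in the dark, so these ranges overlapped. By rank, the PIP1E summits stood at places 384 of 1725, 188 of 2139 and 328 of 1828 in the blue lists and 194 of 1464, 87 of 1373 and 184 of 1342 in the dark lists.

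The mean fold of PIP1E was 3.48 ± 0.854 in blue light and 5.66 ± 1.39 in the dark (SD, n = 3 each), a blue-to-dark ratio of 0.614. Across the 533 merged regions found in all 6 libraries the median ratio was 0.820, with quartiles of 0.724 and 0.928, and 6.57% of these regions had a lower ratio than PIP1E. The ratio of PIP1E thus lay in the low tail of the shared regions. This is a description of 1 region, and depth, the local expectation and binding cannot be told apart in it. The summits spanned 326 bp across the libraries and lay 1758 to 2084 bp from the lower-coordinate end of a gene of 2396 bp. Blue replicate 2 had a second summit 288 bp farther on in the same peak, with a fold of 3.37.

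**Figure D2:**
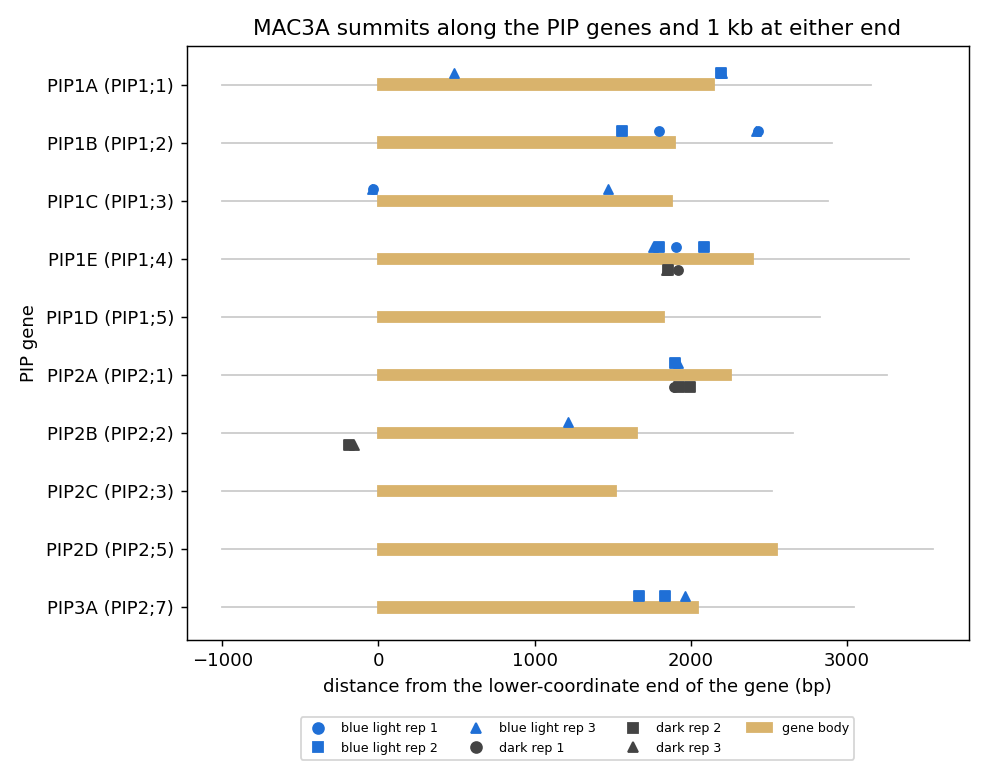
Position of each MAC3A summit (points, shaped by replicate) along the 10 PIP genes (bars, gene bodies; thin lines, 1 kb at either end), in bp from the lower-coordinate end; blue-light summits are above and dark summits below each gene. Blue and dark summits coincide within 326 bp at PIP1E and 101 bp at PIP2A, while at PIP2B the dark summits are below the lower end and the blue summit is at 1213 bp.

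PIP2A (PIP2;1), a main water channel of roots and leaves that also acts in guard cells, had a weaker peak at 1 place in both conditions. In blue light its folds were 2.10 in replicate 2 and 2.91 in replicate 3, and replicate 1 had no summit. In the dark they were 2.20 in replicate 1 and 2.23 and 2.52 at a pair of summits in replicate 2, and replicate 3 had none. The folds of the conditions overlapped. All 5 summits lay within 101 bp of each other, between 19805368 and 19805469 on chromosome 3, inside the gene body. The agreement in position across 4 libraries was closer than the width of any of these peaks, which were 213 to 377 bp wide. The blue summits rested on 82 and 99 fragments against 38.1 and 32.5 expected, and the dark summits on 59, 64 and 55 against 26.0, 27.7 and 20.7. Most were weak in their own lists, at −log10 q values of 2.78 and 6.56 in blue light and from 2.68 to 3.11 in the dark.

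Of the remaining PIP1 genes, 3 had summits in blue libraries and in no dark library. At PIP1B (PIP1;2), a channel studied for water and carbon dioxide uptake, there were summits in all 3 blue libraries but not at 1 common place. Blue replicates 1 and 3 had a summit at 18912514 and 18912500 on chromosome 2, with folds of 2.86 and 2.62. These lay 532 and 518 bp beyond the higher-coordinate end of PIP1B, inside the body of CYP86A8 (AT2G45970), a gene of fatty acid hydroxylation for cutin. Blue replicates 1 and 2 had a summit inside PIP1B itself, at 18911877 and 18911639, with folds of 2.18 and 1.70. Counted in the gene body alone, PIP1B therefore had summits in 2 blue libraries, 238 bp apart. The fold of 1.70 stood at place 2125 of 2139 in its list.

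PIP1C (PIP1;3) had summits at its lower-coordinate end in blue replicates 1 and 3, at 225630 and 225622 on chromosome 1. They lay 35 and 43 bp outside the gene body and 8 bp apart, with folds of 2.79 and 3.19 and 80 fragments in each library, against 27.1 and 23.5 expected. Blue replicate 3 had a further summit inside the gene at 227137, with a fold of 2.60. The nearest dark summits were 3.02 to 9.35 kb away.

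PIP1A (PIP1;1) had summits just past its higher-coordinate end in blue replicates 2 and 3, at 22735434 and 22735442 on chromosome 3, with folds of 2.88 and 2.54. They lay 40 and 48 bp outside the body and, like those of PIP1C, 8 bp apart, and CYSC1 (AT3G61440), a gene of cyanide detoxification, was also within 1 kb. Blue replicate 3 had a summit inside PIP1A at 22733728, with a fold of 2.50. The nearest dark summits were 20.9 to 23.3 kb away.

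PIP3A (PIP2;7), a PIP2 channel whose transcript is known to fall under salt stress, had the lowest median fold of the 6 genes bound in blue light, 2.32. Blue replicate 2 had a peak of 470 bp on chromosome 4 from 16709932 to 16710401, with summits of fold 2.26 and 2.41. Blue replicate 3 had a peak of 200 bp from 16710226 to 16710425, with a fold of 2.23. Their −log10 q values were 2.58, 2.62 and 2.38, close to the lowest that the lists hold. All 3 summits lay inside the gene body. A much stronger summit stood 4.34 kb from the gene in blue replicate 1 and 4.33 to 4.35 kb from it in the dark libraries, with folds of 6.14 in that blue library and 7.52 to 8.52 in the dark, outside the distance counted for PIP3A.

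For PIP1A, PIP1B, PIP1C and PIP3A, the blue folds were set beside the lowest folds that the dark lists could call. Whether depth accounts for the missing dark summits of these 4 genes was not tested. Their 13 blue summits had folds of 1.70 to 3.19, with a median of 2.54, and 11.3% of all dark summits had a fold below that median. For each one, the lowest fold that the dark lists could call was worked out at the same local expectation relative to background, which assumes the same local level in the dark. It was 1.89 to 2.73. On that measure 5 of the 13 summits were too low for any dark list, 1 was too low for 1 of the 3 dark lists, and 7 were high enough for all 3. The 3 PIP3A summits were all among the 5. All 3 summits of PIP1C and 3 of 4 of PIP1B were high enough for all 3 dark lists. Those of PIP1B include the summits at 18912514 and 18912500 inside CYP86A8. Counting error was left out of these limits, and some folds lay close to them on either side. The PIP1B summit at 18911877 had 2.18 against 2.04 to 2.08, and the PIP1A summit at 22733728 had 2.50 against 2.56 to 2.73. The split of the 13 summits is therefore approximate. Against the dark limits at genome-wide background, 2.69 to 2.76, 9 of the 13 summits were too low for any dark list.

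The tandem genes PIP2B (PIP2;2), expressed mainly in roots, and PIP2C (PIP2;3), first described as the desiccation-responsive gene RD28, lie 2.61 kb apart on chromosome 2. PIP2B had dark summits below its lower-coordinate end, at 15613182 in dark replicate 2 and at 15613212 in dark replicate 3, with folds of 3.18 and 2.74. They lay 186 and 156 bp outside the body and 30 bp apart, and AT2G37160 was also within 1 kb. Its 1 blue summit, in replicate 3, was inside the gene at 15614581, with a fold of 2.57. The dark and blue summits of PIP2B were thus 1.37 to 1.40 kb apart. A count of libraries treats as 1 site dark summits below the lower-coordinate end and a blue summit inside the gene body.

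All 3 blue libraries also had a peak in the gap between PIP2B and PIP2C, just outside the distance counted. The summits were at 15616292, 15616303 and 15616308, within 16 bp of each other, with folds of 2.60, 2.44 and 3.05 in blue replicates 1, 2 and 3. They lay 1270 to 1286 bp beyond PIP2B and 1327 to 1343 bp before PIP2C, and no dark library had a summit in the gap. These stood at or near the genome-wide background, with 62, 52 and 70 fragments against 22.3, 20.1 and 21.4 expected. With a limit of 3 kb in place of 1 kb, PIP2B and PIP2C both had summits in all 3 blue libraries, and PIP2C in no dark one. The same gap peaks are then counted for both genes. With that limit 11.9% of protein-coding genes had summits in at least 2 of 3 blue libraries. The gap summits were noticed after the values were seen. The summits counted for members that lay farthest from a gene were those 518 and 532 bp beyond PIP1B.

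PIP2C had no summit within 1 kb, and the nearest dark summits were 4.42 to 50.2 kb away. PIP2B and PIP2C are close sequence relatives, as are several PIP1 genes. How the aligner treated reads that fit more than 1 copy is not stated, so a missing summit in such a gene is uncertain. PIP1D (PIP1;5) had its nearest summit 3.27 to 3.30 kb away in the blue libraries and 3.27 to 44.5 kb away in the dark. PIP2D (PIP2;5), a gene known for its rise under drought and cold, had none nearer than 5.41 kb in the blue and 5.35 kb in the dark libraries.

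Every one of the 28 PIP summits stood where the local expectation was above the genome-wide background. The local expectation was 1.06 to 3.48 times the background, with a median of 1.42. Over all summits of a list, the expectation was above background for 57.2%, 56.8% and 52.8% in the blue libraries and 62.0%, 60.0% and 60.4% in the dark libraries. It exceeded 1.5 times the background at 12 of the 28 PIP summits of both conditions pooled. The shares of all summits were 12.4% to 14.1% in the blue lists and 21.6% to 23.2% in the dark lists. The 12 were at PIP1B, PIP1E, PIP2A and PIP2B only, and PIP1A, PIP1C and PIP3A reached at most 1.26, 1.41 and 1.39. The highest values, 2.68 and 3.48, were at the summits inside PIP1B in blue light, and PIP2A reached 1.94 in blue light and 2.61 in the dark. An expectation is known only where a list has a summit, so in the dark it was seen at PIP1E, PIP2A and PIP2B alone. Summits of 1 gene share their surroundings, so the 28 are not independent, and the part of this signal in which genes were called was not tested.

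**Figure D3:**
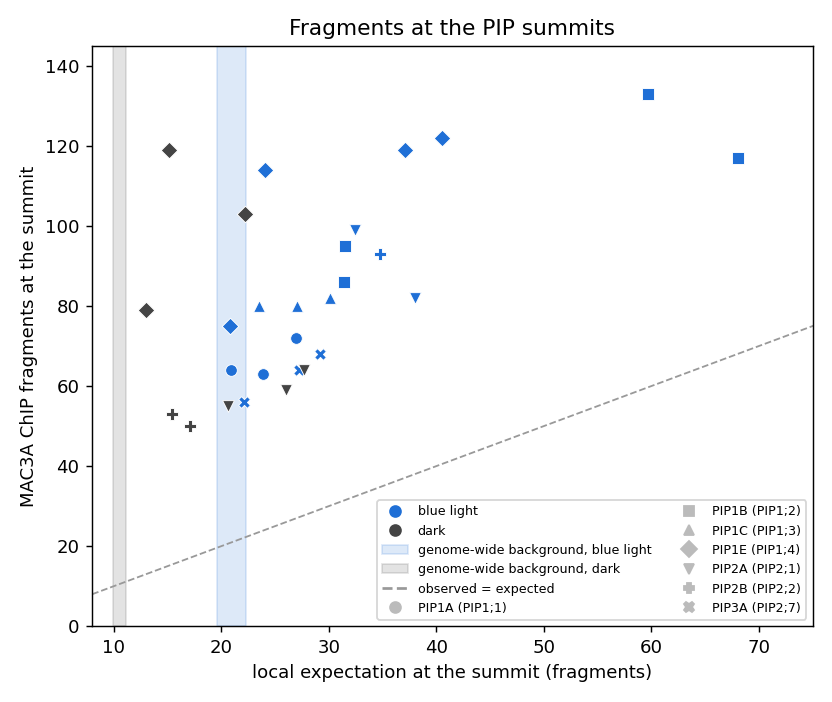
MAC3A ChIP fragments at each PIP summit against the local expectation there in fragments (linear axes), shaped by gene and coloured by condition; shaded bands show the range of the genome-wide background over the 3 libraries of a condition, and the dashed line marks equality. All summits lie above the line, and each expectation exceeds the background of its own library. Summits of blue replicate 2 at PIP1A, PIP1E and PIP3A, with expectations of 20.9, 20.8 and 22.1, still lie within the blue band. The highest expectations, 59.7 and 68.1, are at PIP1B in blue light.

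By fold, most PIP summits were of moderate or low strength within their lists. By rank of q, the median PIP summit stood in the top 49.6% of its list in blue light and 64.8% in the dark. Of the 20 blue summits 16 had a fold under 3, and of the 8 dark summits 4 did. Their median fold was 2.61 in blue light and 2.96 in the dark, against medians of all summits of 2.81 ± 0.0338 and 3.35 ± 0.0187 (SD, n = 3 each). At a −log10 q of at least 5, PIP1E remained as the 1 gene with summits in at least 2 libraries of a condition. The same rule held for 3.6% of protein-coding genes in blue light and 3.06% in the dark. PIP1E met it in both conditions, as did 2.17% of protein-coding genes. Limiting the lists to folds of 3 or more gave the same gene, again in both conditions. The shares of protein-coding genes were then 3.24% in blue light, 3.95% in the dark and 2.37% in both. Peak widths ran from 200 to 1029 bp in blue light and from 213 to 896 bp in the dark, with the widest at PIP1B and PIP1E.

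**Figure D4:**
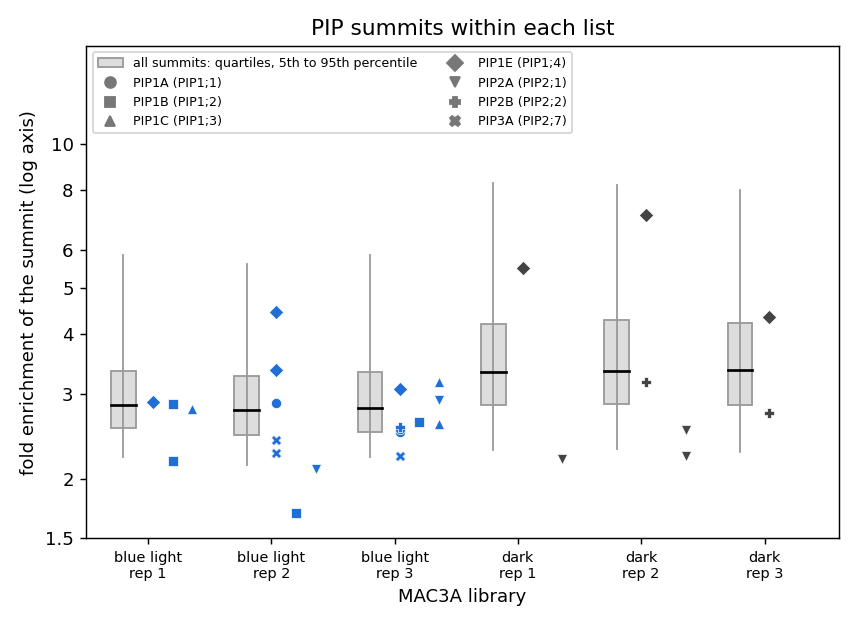
Fold enrichment (log axis) of the PIP summits, shaped by gene, beside the distribution over all summits of each list (box, quartiles; black line, median; thin line, 5th to 95th percentile). PIP1E lies above the median of each list, and the summits of PIP3A lie under the lower quartile of theirs.

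Most PIP summits lay within 500 bp of a gene end, as did most pairs of a MAC3A summit and a protein-coding gene. A summit near several genes enters such pairs once for each gene. The share that even placement would give was not worked out, so no preference for gene ends is read from this. Of the 28 summits 20 were in the gene body and 8 outside it, by at most 532 bp. Over all pairs of a summit and a protein-coding gene, 53.3% had the summit in the body. Within 500 bp of a gene end, inside or out, were 16 of the 20 blue and 6 of the 8 dark summits, where 69.5% and 63.3% of all pairs of a summit and a protein-coding gene met the same limit. The median distance to the nearest end was 349.5 bp in blue light and 348 bp in the dark, against 301 and 378 bp over all such pairs. The table used has no strand, so neither end can be named as the start of the gene. Promoter and protein sequences were not used here.

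The other aquaporin genes had summits about as often as protein-coding genes in general. Of 25 such genes, 1 was bound in blue light, where 7.37% of protein-coding genes were, in the sense of a summit in at least 2 of 3 libraries. In the dark 2 of the 25 were bound, where 5.62% of protein-coding genes were. The remaining 22 had no summit in any library, like 86.3% of protein-coding genes. The 22 include the remaining PIP genes PIP2F (AT5G60660), PIP2E (AT2G39010) and PIP3B (AT2G16850), none of which had a summit. Among 10 tonoplast channels, TIP2;2 (AT4G17340) had summits in its body in blue replicates 1 and 2, 48 bp apart, with folds of 2.80 and 2.62, and in no dark library. Among 9 NOD26-like channels, the boric acid channel gene NIP5;1 (AT4G10380) had body summits in the 3 dark libraries and in no blue library. At 6435261, 6435170 and 6435231 on chromosome 4, in dark replicates 1, 2 and 3, the folds were 3.77, 2.77 and 2.76. Dark replicate 3 had another summit in the gene at 6433541, with a fold of 3.14. NIP1;2 (AT4G18910), known for aluminium transport, had summits in 1 blue and 2 dark libraries, with folds of 2.72 in blue light and 3.85 and 4.22 in the dark. The 3 small basic channels had none. Of the 9 summits at these 3 genes, 8 were at the genome-wide background of their list.

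Of 13 genes known to act on PIP channels or their delivery to the membrane, 0 were bound in blue light and 3 in the dark, where 7.37% and 5.62% of protein-coding genes were bound. SYP121 (AT3G11820), a plasma membrane syntaxin that takes part in PIP delivery, had summits in its body in dark replicates 1 and 3, with highest folds of 2.75 and 2.69. BCA4 (AT1G70410), a carbonic anhydrase gene, had summits in the same libraries, with folds of 2.90 and 2.95. AT3G02880 had a summit 40 to 57 bp beyond its end in all 3 dark libraries, with folds of 3.36, 3.32 and 3.37, and GASA5 (AT3G02885) was within 1 kb of it. TSPO (AT2G47770), a membrane protein that binds PIP3A and sends it to degradation, had 1 summit, in blue replicate 2, which lay in the body of ALG3 (AT2G47760). The 3 dark-bound genes had no blue summit, a pattern of 0.969% of protein-coding genes. With counts this small and lists chosen with earlier results known, no difference from other genes is read from them.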

How the data were processed

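Chromatin immunoprecipitation sequencing of MAC3A gave 1 narrowPeak list per library, 3 from blue light and 3 from the dark. The tools named in the submitters' processing notes are Bowtie2, SAMtools, ChIPseeker and MACS2 2.1.1, with TAIR10 as the build. Steps, parameters and the control behind each list are not stated there. The deposited lists hold, per summit, a fold enrichment (a ratio over local background), the −log10 of the p value, the −log10 of the q value within the library, and a whole-number score. The score, as deposited by the authors, was not used.

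Genes came from the RefSeq table of assembly TAIR10.1, used for names and for which genes lie at a peak. All 10 members and the 38 other listed genes were found in it by locus. As a check of the placement, 79.1% of summits fell in gene bodies, against 66.1% to 69.6% after shifts of 1 or 5 kb either way. Positions printed are those of the peak lists, counted from 1. A gene was bound in a condition with a summit in its body or within 1 kb in at least 2 of 3 libraries. All 10 members are named, with other PIP genes, other listed genes with summits, and neighbours sharing a summit. The gap between PIP2B and PIP2C was added after its values were seen. The members and lists were chosen with earlier results of these data known, and no test was run on them.

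Fragments at a summit were solved from fold, taken as (pileup + 1)/(expected + 1), and the Poisson p value, with the expectation at the list's background or a multiple of 0.02 above it. Per list, 99.6% to 99.9% of summits were solved. The number of fragments per unit of pileup was taken as the smallest that made the pileups whole. Tested on 3 simulated lists, the lowest share of summits solved was 99.5%, and the solution was right for 100% of those solved. These lists were made with the same formulas and steps. They check the arithmetic, and cannot show whether the deposited lists follow that model. PCR copies are not resolved, so such numbers cover counting error only. Read totals were not used here. Python 3.11.15, pandas 2.3.3, NumPy 2.4.6 and SciPy 1.17.1 were used.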

Additional observations from a re-analysis of the deposited data

How the results depend on the processing

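The number of PIP genes bound in blue light, 6, was 4 with lists of equal length and with gene bodies only, 6 with 500 bp and with whole-peak overlap, and 8 with 3 kb. The share of protein-coding genes, 7.37% as reported, moved too, to 5.76%, 3.72%, 6.31%, 7.73% and 11.9% under these settings in turn. The genes added with 3 kb were PIP2B and PIP2C, both through the same peaks in the gap between them. Through these peaks PIP2B was also added to the genes bound in both conditions. The number was 1 with summits of −log10 q 5 or more, 1 with summits of fold 3 or more, 2 when all 3 libraries were needed, and 2 to 5 when a blue library was left out, beside genome shares of 3.6%, 3.24%, 5.1% and 5.56% to 6.07%. The number bound in the dark, 3, was 2 with gene bodies only and 3 with equal lengths, 500 bp, whole-peak overlap or 3 kb, beside genome shares of 3.14%, 5.45%, 4.69%, 5.95% and 9.52%. It was 1 at the q and at the fold threshold, 1 when all 3 libraries were needed, and 1 to 2 without a dark library, beside 3.06%, 3.95%, 3.7% and 4.23% to 4.42%. The number bound in both, 2, was 3 with 3 kb, 2 with gene bodies only, 500 bp or whole-peak overlap, 1 at either threshold, 1 with lists of equal length, 1 when all 3 libraries were needed, and 1 to 2 without a library, while the genome share was 7.13% with 3 kb and 2.17% to 4.4% otherwise. Other aquaporins bound in blue light numbered 0 in place of 1 at either threshold, with equal lengths and with all 3 libraries needed, and 0 to 1 without a library. In the dark they numbered 1 in place of 2 with summits of −log10 q 5 or more and with all 3 libraries needed, and 1 to 2 without a library. PIP regulators, tried under alternatives added after the data were seen, were bound in the dark in 0 cases in place of 3 at that q, 1 at that fold, 1 with all 3 libraries needed, 2 with gene bodies only, 4 with 3 kb and 1 to 3 without a library. In blue light 2 were bound with 3 kb, and 0 under every other setting run. For PIP2B the blue minus dark share of libraries turned to 0.333 with gene bodies only and with 3 kb. With lists of equal length PIP3A had no summit left, and PIP2A had 1 blue and 2 dark libraries. No paired analysis was possible because these counts come from no test, and the labels do not say whether equal replicate numbers share a culture. At genome-wide background the lowest fold that could enter a dark list was 2.69 to 2.76. Of the 13 summits of the genes called in blue light only, 9 had folds below this. No PIP summit stood at background. At the same local expectation relative to background, assumed equal in the dark, 5 of the 13 were too low for any dark list. On that assumption 1 was too low for 1 of the 3 dark lists and 7 were high enough for all 3. Counting error was left out of these limits, so the split is approximate. Whether depth accounts for the missing dark summits was not tested. The causes of these changes were not tested beyond what each setting removes by construction.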
